A study of Carassius auratus with 9 samples.

Results

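The transcripts of oxidative phosphorylation were compared between brown, white and yellow skin of the celestial goldfish (Carassius auratus). They were taken as every row on the mitochondrial sequence, plus every nuclear row whose product name begins with the name of a NADH dehydrogenase [ubiquinone], succinate dehydrogenase, cytochrome b-c1 complex, cytochrome c oxidase or ATP synthase subunit. That rule took 218 of the 74297 gene rows. Of these, 38 lie on the mitochondrial sequence (13 protein-coding genes, 2 ribosomal RNAs, 22 transfer RNAs and 1 row with no name), and 180 are nuclear. The nuclear rows comprise 169 subunit rows and 11 rows of assembly factors, with 67 rows for complex I, 21 for complex II, 21 for complex III, 51 for complex IV and 20 for complex V.

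RNA was taken from the back skin of 4-month-old fish, with 3 biological replicates of each color: brown, white and yellow. The labels do not state sex, parentage or whether a replicate pools fish. The comparison was set up by the submitters to look for genes related to pigment. Values are FPKM, fragments per kilobase of gene scaled to a library total that the authors set.

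Oxidative phosphorylation is the last stage of respiration. Complexes I and II feed electrons from NADH and succinate into the inner mitochondrial membrane, complex III passes them to cytochrome c, and complex IV hands them to oxygen. Complexes I, III and IV pump protons, and complex V, the ATP synthase, uses the returning protons to make ATP. Complex II is encoded entirely in the nucleus, whereas the others combine subunits encoded in the mitochondrial genome with nuclear ones, so a cell draws on both genomes to build them. In mammals, complex IV has subunit forms that are particular to heart and skeletal muscle beside forms used elsewhere.

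Libraries held between 13772601 and 17359648 reads counted on genes. FPKM multiplied by gene length in kilobases summed to at most 929949 in the libraries numbered 1 and 2. It reached 1482470 in those numbered 3. The authors' library totals were 0.675 to 0.762 times the counted reads in the libraries numbered 3. In the others they were 1.08 to 1.39 times the counted reads. A smaller total raises the FPKM of every gene in its library. Skin was recognisable in all 9 libraries: the keratinocyte list (keratins and desmosomal proteins of the epidermis, 87 rows) took 0.912% to 5.49% of reads, and 15 to 28 of its rows had no read. Skeletal muscle transcripts were present too. The skeletal muscle list (163 rows of fast myosins, troponins, actin, parvalbumin and the like) had 19 to 36 rows at no read in a library. Its share of counted reads, in replicate order, was 6.01%, 2.43% and 19.4% for brown, 2.12%, 11.8% and 33.1% for white, and 0.229%, 0.814% and 26.0% for yellow. Muscle share therefore varied more within a color than between colors.

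The mitochondrial genome's protein-coding transcripts were dominated by complex IV. COX2 (positions 8109 to 8799 of the mitochondrial sequence), the subunit that accepts electrons from cytochrome c, stood at 6290, 21735 and 22273 FPKM in the brown libraries, in replicate order as in all that follows. The white ones had 4176, 4472 and 15308 FPKM, and the yellow ones 4691, 4179 and 19358. It ranked first in all 9 libraries and made up 55.2% to 69.8% of the FPKM of the mitochondrial protein-coding genes. Brown 2 and the libraries numbered 3 were the high ones, and the colors overlapped.

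COX3 and COX1, the other mitochondrial subunits of complex IV, followed with means over the 9 libraries of 2466 and 2294 FPKM. Their order was not fixed, as COX3 was above COX1 in 5 of 9 libraries. COX1, the catalytic subunit with the oxygen-binding site, was at 1339, 3788 and 3785 FPKM in brown, 1259, 1455 and 2626 in white, and 1022, 1340 and 4036 in yellow. COX3 was at 1154, 4644 and 4177 FPKM in brown, 1011, 1312 and 3270 in white, and 1167, 859.4 and 4603 in yellow. Both repeat the COX2 pattern, with brown 2, brown 3, white 3 and yellow 3 above the other 5 libraries.

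ATP6, the complex V subunit that forms part of the proton channel, ranked below them in every library, at 230.7 to 991.5 FPKM. ATP8, its small partner, overlaps ATP6 by position (8877 to 9041 against 9035 to 9718) and had 21.1 to 127.9 FPKM. Below ATP6 the order shifted from library to library. ND4 ranged from 48.3 to 166.8 FPKM and CYTB, the only mitochondrial subunit of complex III, from 47.5 to 156.9 FPKM. ND3 and ND4L had means of 41.2 and 38.8 FPKM, and ND5 and ND2 of 11.5 and 10.5. These ND genes encode the membrane arm of complex I, which pumps protons.

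ND6 had the widest relative range of the protein-coding genes, 17.2-fold between libraries, and is the only one of them annotated on the minus strand. It stood at 51.8, 266.4 and 118.4 FPKM in brown, 21.3, 41.9 and 169.2 in white, and 31.6, 21.0 and 361.0 in yellow. Its FPKM was 0.357 to 2.77 times that of CYTB, with yellow 3 and brown 2 the highest. No source used here gives the strand setting of the counting, so reads from the 2 strands at this position cannot be told apart.

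ND1 (positions 3776 to 4750) was listed at 0 in all 9 libraries, although its neighbour ND2 had reads in each. The ribosomal RNAs were low for their size: 16S had 24.2 to 230.6 FPKM and 12S 11.5 to 98.7 FPKM, and together they took 0.892% to 1.83% of the reads on the mitochondrial sequence. Of the 22 transfer RNA rows, 7 were at 0 in all libraries and 9 were high enough to be tested. A pair of minus-strand rows beside COX1 stood out, with 91.2 to 859.1 FPKM for tRNA-Asn and 59.2 to 914.2 FPKM for tRNA-Cys, both highest in brown 2. All transfer RNA rows together took 0.170% to 0.493% of mitochondrial reads.

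**Figure D1:**
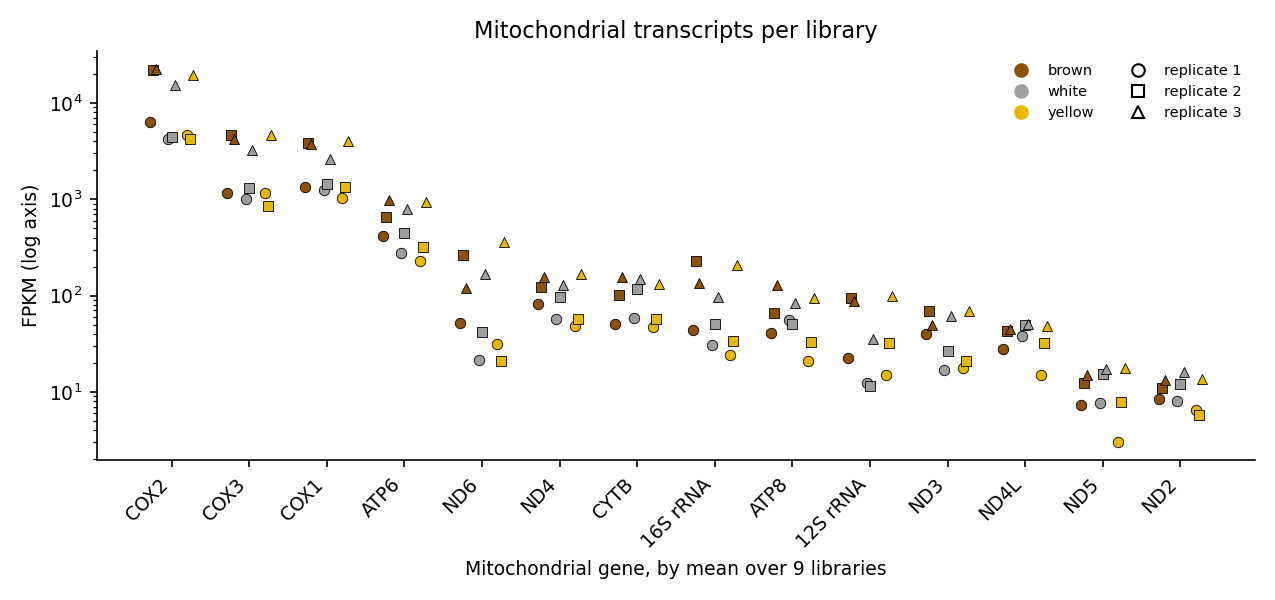
FPKM (log axis) of the mitochondrial protein-coding genes with reads and of the ribosomal RNAs, ordered by mean over the 9 libraries. Each library is a point, colored by skin color and shaped by replicate, and transfer RNA rows are not drawn. COX2 is first in every library, and brown 2 and the libraries numbered 3 (triangles) lie above the rest for the COX genes, with the colors overlapping.

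On the nuclear side, complex IV and complex V rows were the most abundant. Summed over rows, nuclear complex IV had 1172 to 4606 FPKM per library, complex V 791.4 to 2919, complex I 460.0 to 1685, complex III 246.9 to 951.4 and complex II 74.3 to 201.1. These sums add different numbers of rows, and the order of the complexes was the same in all 9 libraries.

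In complex IV, the most abundant row was LOC113061791 (chromosome 43, 16077777 to 16080132), an isoform 1 of subunit 4, the regulatory subunit that binds nucleotides. It was at 229.9, 171.7 and 533.5 FPKM in brown, 201.2, 198.6 and 429.6 in white, and 222.6, 173.8 and 334.3 in yellow. Next was LOC113046846 (chromosome 28), annotated as subunit NDUFA4, at 105.0 to 415.4 FPKM. In both rows brown 3, white 3 and yellow 3 were the highest library of their color and the colors overlapped.

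In complex V, LOC113108428 (subunit O, part of the stalk that holds the catalytic head; chromosome 9) had 69.5 to 363.3 FPKM and LOC113110660 (subunit beta, the catalytic subunit; chromosome 11) 63.6 to 332.1 FPKM. The beta row was at 141.0, 63.6 and 332.1 FPKM in brown, 121.7, 155.9 and 293.0 in white, and 102.5, 101.9 and 202.4 in yellow. Brown 2 was thus the lowest of all libraries for this nuclear row while it was among the highest for COX2.

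Complex III was led by LOC113062134 (subunit 7; chromosome 44) at 40.3 to 219.8 FPKM and LOC113050977 (subunit 6, the acidic hinge protein near cytochrome c1; chromosome 31) at 40.5 to 148.4 FPKM. Complex I, with many more subunits, had lower single rows, led by LOC113053082 (1 beta subcomplex subunit 7; chromosome 1) at 21.8 to 119.9 FPKM and LOC113061849 (1 beta subcomplex subunit 2; chromosome 4) at 22.7 to 70.7 FPKM. Complex II was lowest, led by LOC113120989 (the cytochrome b560 membrane anchor; chromosome 2) at 11.4 to 33.1 FPKM and LOC113062609 (the flavoprotein that oxidises succinate; chromosome 44) at 11.7 to 26.9 FPKM.

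Most nuclear subunits had several gene copies. Of 71 product names, 60 had at least 2 rows, and cytochrome c oxidase subunit 5B had the most, with 7. The leading copy held a median of 67.1% of its product's mean FPKM over these 60 products. The same copy led in all 9 libraries for 38 products, and the lead changed between libraries for 22. No source used here says how reads shared by near-identical copies were counted, so values of single copies are uncertain.

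The first question on color was whether any row differed between brown, white and yellow skin. None was called by limma on log2(FPKM + 1) with Benjamini-Hochberg adjustment over 27420 tested genes, at an adjusted p of 0.05. A row that was not called may still differ. Of 218 rows, 173 passed the filter of at least 1 FPKM in 3 libraries (149 nuclear and 24 mitochondrial) and 45 did not, 15 of which were at 0 everywhere. The count of rows called was 0 of 173 for brown against white, where 0.0365% of all genes were called. It was 0 for yellow against white and 0 for brown against yellow, where 0.0438% and 0% of all genes were called, and 0 in the moderated F test over the 3 colors, where the share was 0.0474%. Voom on recovered reads called 0 of all 27420 genes, so it does not bear on these rows in particular.

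At an unadjusted p under 0.05, the limma count was 2 rows for brown against white (5.72% of all genes), 3 for yellow against white (3.5%), 0 for brown against yellow (1.67%) and 3 over the 3 colors (3.42%). With 173 rows tested, each of these counts is a smaller share than that of all genes in this fit. By the same limma fit, the smallest adjusted p over the 3 colors was 0.519, for a tRNA-Ser row (12734 to 12802) with 7 reads in all. That row had 1.30, 1.61 and 3.87 FPKM in white and 0 in every brown and yellow library, and it passed the filter only through the white libraries.

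The nuclear rows with the smallest p over the 3 colors, none of them called (each adjusted p was 0.999), were led by LOC113092707 on an unplaced sequence. It is a copy of complex IV subunit 6B1, which links the monomers of the complex IV dimer. It was at 22.4, 39.8 and 37.3 FPKM in brown, 21.1, 9.03 and 12.6 in white, and 28.3, 19.6 and 37.8 in yellow. The brown libraries all lay above the white ones, narrowly for brown 1 against white 1, and the yellow ones overlapped both. The log2 difference was 1.20 ± 0.43 (SE) for brown against white, with an adjusted p of 0.788 in the limma fit. No other nuclear row was higher in every brown than in every white library, and 5.74% of all genes were. The tRNA-Ser was the only row lower in every brown library, where 5.18% of all genes were.

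LOC113039352 (chromosome 22, 2393783 to 2397100), a copy of the iron-sulfur subunit of succinate dehydrogenase, followed. It was at 3.34, 1.49 and 7.48 FPKM in brown, 6.26, 8.62 and 9.43 in white, and 4.95, 2.05 and 1.08 in yellow. Every yellow library was below every white one, as for 4 rows in all (the tRNA-Ser above, this row, LOC113069056 and LOC113120013), where 4.54% of all genes were, and no row was above (5.09% of all genes). Its log2 difference between yellow and white was -1.42 ± 0.50 (SE), with a limma adjusted p of 1.00.

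Next came LOC113047050 (chromosome 28, 17520052 to 17522285), a copy of complex IV subunit 6A, the row with the widest spread. It was at 21.4, 4.19 and 80.0 FPKM in brown, 7.29, 2.34 and 168.1 in white, and 0.174, 0.404 and 9.74 in yellow. The white libraries alone spanned most of this range, and all 3 colors overlapped. The log2 difference was -2.68 ± 1.51 (SE) for yellow against white and 3.02 ± 1.51 for brown against yellow, and neither passed.

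The other 7 of these rows were copies of complex III subunit 9 (LOC113064419), complex I 1 alpha subcomplex subunits 2 and 8 (LOC113063705 and LOC113109690), complex I iron-sulfur proteins 2 and 3 (LOC113069056 and LOC113051404), succinate dehydrogenase assembly factor 2 (LOC113052529) and its cytochrome b small subunit B (LOC113058422). The 2 rows that were higher in every brown than in every yellow library were among them, where 2.64% of all genes were, and no row was lower in every brown library (2.57%). LOC113063705 had 24.3, 18.9 and 28.04 FPKM in brown against 12.9, 10.6 and 18.1 in yellow, and LOC113051404 had 3.53, 4.07 and 8.18 against 2.93, 2.25 and 3.00. Their log2 differences were 0.75 ± 0.37 and 0.68 ± 0.37 (SE), and neither passed.

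The median nuclear row lay slightly low in yellow, which was not tested over the rows as a set. The median log2 difference of the 149 tested nuclear rows was 0.03 for brown against white (80 higher), -0.21 for yellow against white (30 higher) and 0.24 for brown against yellow (116 higher), where the medians over all tested genes were -0.02, -0.03 and 0.01. Of all tested genes, 48.4%, 47.0% and 50.9% were higher in these comparisons. Both the comparisons and the rows share libraries and so are not separate pieces of evidence. For yellow against white, 47 of 57 rows of complex I, 12 of 17 of complex II, 14 of 18 of complex III, 30 of 40 of complex IV and 16 of 17 of complex V were lower, none of them called. Per complex, the medians ran from -0.23 (complex I) to -0.12 (complex III).

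These medians moved with single libraries and with the muscle score. Leaving out each library in turn moved the yellow against white median between -0.62 and 0.15 and the brown against yellow median between -0.20 and 0.58. The former was above 0 without white 3 (0.15) or yellow 2 (0.02), and the latter below 0 without brown 3 (-0.20) or yellow 2 (-0.01). With the muscle score as a covariate, the nuclear medians became 0.21 for brown against white, 0.29 for yellow against white and -0.10 for brown against yellow. Rescaled to TPM, the medians of all genes became -0.19, 0.03 and -0.22 and the nuclear ones -0.16, -0.15 and -0.03, so 2 nuclear medians changed sign with the scale. Relative to all genes they were 0.05, -0.19 and 0.23 in FPKM and 0.03, -0.18 and 0.19 in TPM.

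The 12 tested mitochondrial protein-coding genes had median log2 differences of 0.42 for brown against white, -0.19 for yellow against white and 0.62 for brown against yellow. All 12 were higher in brown than in yellow on average and 8 of 12 higher in brown than in white, none of them called. COX2 had the largest difference, 1.14 ± 0.87 (SE) for brown against white. Over all 24 tested mitochondrial rows the medians were 0.57, -0.19 and 0.70. Leaving out each library in turn moved them from 0.40 to 0.94, from -0.84 to 0.22 and from 0.25 to 1.35, and the yellow against white median was above 0 without white 3 (0.22), yellow 1 (0.19) or yellow 2 (0.01). These genes are neighbours on 1 molecule and do not count as separate observations.

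**Figure D2:**
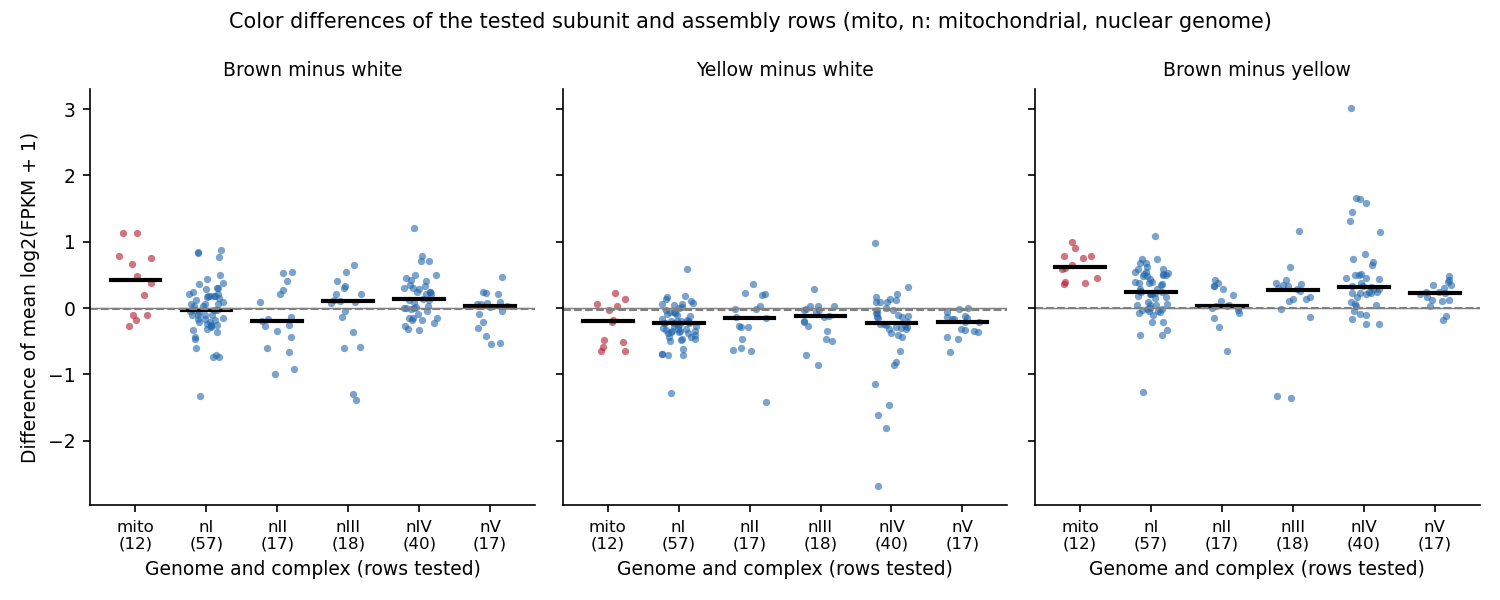
Difference of mean log2(FPKM + 1) between colors for every tested protein-coding row, mitochondrial in red and nuclear by complex in blue, with black bars at the medians and a dashed line at the median of all tested genes. Nuclear medians for yellow minus white lie between -0.23 and -0.12, and the mitochondrial median is highest for brown minus yellow, at 0.62; no row passed the test.

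The second question was whether the mitochondrial and nuclear contributions changed together. Summed over the 13 protein-coding genes, mitochondrial FPKM was 9503, 31507 and 31909 in brown, 6983, 8095 and 22676 in white, and 7302, 6930 and 29828 in yellow. The nuclear sum over 180 rows was 4024, 3350 and 10363 FPKM in brown, 3270, 4142 and 9385 in white, and 3474, 2752 and 7903 in yellow. Both sums were highest in the library numbered 3 within each color, except that brown 2 nearly equalled brown 3 for the mitochondrial sum while staying low for the nuclear sum. That near equality depends on the authors' library totals. As a share of counted reads, the mitochondrial protein-coding genes took 2.87% in brown 2 and 1.74% in brown 3.

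The ratio of mitochondrial to nuclear FPKM, in which the library scale cancels, was 2.36, 9.41 and 3.08 in brown, 2.14, 1.95 and 2.42 in white, and 2.10, 2.52 and 3.77 in yellow. It averaged 4.95 ± 3.88 in brown, 2.17 ± 0.23 in white and 2.80 ± 0.87 in yellow (SD, n = 3 each). Brown 2 alone stood far from the rest, with the other 8 libraries between 1.95 and 3.77. An exact permutation test of log2 ratios over the 3 colors gave p = 0.279 (one-way F statistic; the smallest possible is 0.00357).

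Between pairs of colors, two-sided exact permutation tests of the log2 ratio gave p = 0.2 for brown against white (1.89-fold), 0.3 for yellow against white (1.26-fold) and 0.6 for brown against yellow (1.51-fold), where 3 libraries against 3 cannot go below 0.1. The brown against white fold rests on brown 2: its log2 value was 0.92 with that library and 0.32 without it. Computed on medians of log2 values over rows instead of sums, which COX2 dominates, it was 0.19. The log2 ratio of brown to yellow was 0.59, and -0.01 without brown 2.

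The mitochondrial sum itself gave an exact permutation p of 0.371 over the 3 colors, and the nuclear sum 0.764. For FPKM summed by complex into 4 mitochondrial and 5 nuclear sums, every exact permutation p, adjusted over the 9 sums, was 0.811. The ratio within complex IV was 5.01, 21.1 and 6.56 in brown, 4.74, 4.16 and 4.97 in white, and 4.54, 5.44 and 8.35 in yellow, so brown 2 stood apart there as well. Within complexes I and V brown 2 was also highest, at ratios of 0.769 and 0.869 against at most 0.518 and 0.443 elsewhere, but within complex III its 0.298 was below the 0.322 of white 2.

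Brown 2 was also the library with the fewest reads, 13772601, and had reads on 39217 genes, against 36617 in yellow 3 and 42130 to 48012 in the others. The part of these in its ratio was not tested.

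**Figure D3:**
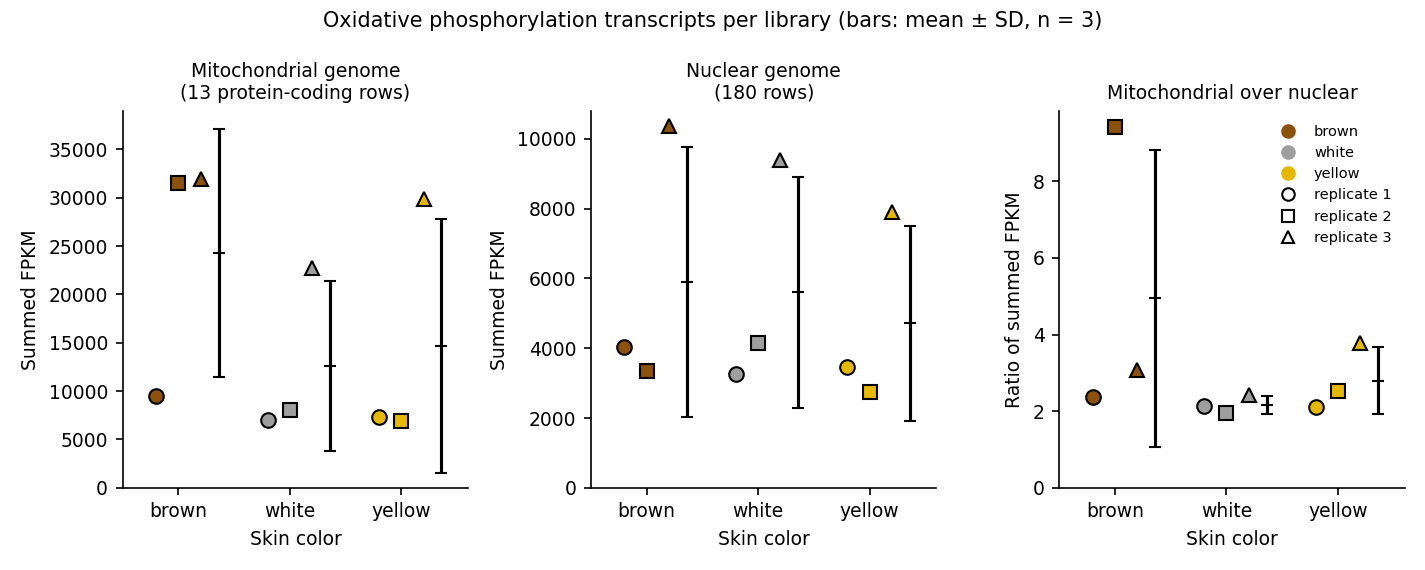
Summed FPKM of the mitochondrial protein-coding genes, of the nuclear rows, and their ratio, with a point per library and the mean ± SD (n = 3) beside each color. The libraries numbered 3 are high for both genomes, brown 2 is high for the mitochondrial genome only, and the ratio of 9.41 in brown 2 is far above the other 8 libraries.

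As muscle share varied so widely within colors, the sums were set against it. Over the 9 libraries, the log2 nuclear sum on the authors' library totals correlated with the log2 muscle share with Pearson's r = 0.818 and Spearman's rho = 0.833 (exact permutation p = 0.00799 and 0.00827; 0.0399 and 0.0413 adjusted over 5 relations). It was 0.907 without yellow 1 and yellow 2, the libraries farthest from the median muscle share, and 0.838 after centring each color. The libraries numbered 3 hold the highest muscle share in each color and the smallest library totals set by the authors. As a share of counted reads, which leaves those totals out, r was 0.755 (exact permutation p = 0.0202, adjusted 0.0506), so the relation then missed the threshold. Muscle rows are among the counted reads, so a higher muscle share lowers the share left to all other rows. Median-of-ratios scaling gave all-gene medians of -0.021 (brown against white), -0.027 (yellow against white) and 0.008 (brown against yellow), as did the authors' totals. The correlation was not computed on that scale.

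The mitochondrial sum did not pass, with r = 0.635 and rho = 0.65 (exact permutation p = 0.067 and 0.0666, adjusted 0.112 and 0.111). Leaving out yellow 1 and yellow 2 gave r = 0.428, and centring by color r = 0.735. As a share of counted reads r was 0.427 (exact permutation p = 0.251, adjusted 0.314). The correlations of the nuclear and mitochondrial sums were not tested against each other. The ratio showed r = 0.0683 and rho = 0.3 (exact permutation p = 0.874 and 0.437). In bulk skin, fewer cells of a type and less RNA per cell cannot be told apart. Whether muscle content accounts for the nuclear sum was not tested.

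Single nuclear rows followed muscle to very different degrees. Across the 9 libraries, the correlation of log2(FPKM + 1) with log2 muscle share had a median of 0.734 over the 149 tested nuclear rows, and 12 rows were negative. Over the 27133 genes outside these rows and the muscle list, the median was -0.0653. The threshold of 0.9 was chosen after these values were seen, and the correlations share libraries and depth, so they are given as descriptions. They exceeded 0.9 for 6 rows, or 4.03%, against 403 of 27133 genes outside these rows and the muscle list, or 1.49%. The next highest row was at 0.889.

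All 6 were copies of complex IV subunits, although complex IV has 40 of the 149 tested nuclear rows. They were LOC113094754 (subunit 4 isoform 2, r = 0.984), LOC113046285 (subunit 6A, 0.976), LOC113056622 and LOC113112343 (subunit 5B, 0.959 and 0.951), LOC113058402 (subunit 7A2, 0.957) and LOC113072380 (subunit 8B, 0.944). Subunit 5B binds zinc on the matrix side, and subunits 6A, 7A and 8 are small peripheral proteins of the complex whose mammalian forms differ between muscle and other tissues. Whether any of these 6 copies corresponds to a mammalian muscle form was not tested.

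Sister copies of the same product followed muscle less closely, to very different degrees. For subunit 8B, r was -0.490 for LOC113064075, 0.135 for LOC113038484 and 0.889 for LOC113043062. For 6A it was -0.126 for LOC113093779, 0.794 for LOC113047050 and 0.791 for LOC113070395. For 7A2 it was 0.520 for LOC113060390, 0.467 for LOC113120612 and 0.158 for LOC113116981. The nuclear median was 0.734, so LOC113043062, LOC113047050 and LOC113070395 stood above it. Subunit 5B had sisters at -0.00770 (LOC113054572), -0.166 (LOC113107297) and -0.207 (LOC113110245). The other isoform 2 copy of subunit 4, LOC113069123, also stood above the nuclear median, at 0.835. For subunit 8B (LOC113072380, on an unplaced sequence), the muscle-following copy was at 58.7, 68.7 and 230.0 FPKM in brown, 23.1, 73.5 and 290.7 in white, and 12.3, 20.6 and 306.5 in yellow. Its sister LOC113064075 (chromosome 46) was at 97.4, 40.3 and 100.2 FPKM in brown, 98.1, 71.2 and 56.2 in white, and 121.9, 82.9 and 35.9 in yellow. The former was lowest and the latter highest in yellow 1, the library with the least muscle transcript.

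The muscle-following copy made up 28.7%, 46.9% and 50.1% of the subunit 8B FPKM in brown, 14.6%, 40.9% and 72.8% in white, and 6.83%, 15.7% and 80.6% in yellow. Subunit 8A, by contrast, had a single row, which did not reach 1 FPKM in any library.

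Subunit 5B behaved alike. Its pair of muscle-following copies, LOC113056622 (chromosome 38) and LOC113112343 (chromosome 13), made up 29.3%, 41.7% and 56.3% of the product's FPKM in brown, 9.81%, 39.5% and 75.7% in white, and 2.56%, 13.4% and 83.7% in yellow. LOC113056622 went from 1.02 FPKM in yellow 1 to 150.6 in white 3. LOC113054572 (chromosome 35), the leading copy in the libraries with little muscle, was at 56.6, 24.2 and 107.0 FPKM in brown, 59.95, 48.1 and 53.1 in white, and 64.8, 46.4 and 29.2 in yellow.

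For subunit 6A, LOC113046285 (chromosome 3) went from 0.903 FPKM in yellow 1 to 97.2 in white 3, or from 1.19% of the product in yellow 1 to a highest share of 50.4% in yellow 3. Its sister LOC113093779, on an unplaced sequence, was at 60.8, 22.9 and 92.5 FPKM in brown, 71.2, 52.5 and 50.5 in white, and 75.1, 56.5 and 38.1 in yellow. Another sister, LOC113047050, varied widely too, from 0.229% of the product in yellow 1 to 53.1% in white 3. In white 3 it exceeded LOC113046285, which held 30.7% there. For subunit 7A2, LOC113058402 (chromosome 40) went from 3.04% of the product in yellow 1 to 61.9% in white 3, that is from 2.36 to 157.0 FPKM, while its sister LOC113060390 (chromosome 42) stayed between 18.9 and 71.9 FPKM. The related protein LOC113057238 (7A-related; chromosome 38), which takes part in joining complexes III and IV in mammals, ranged from 12.8 to 72.9 FPKM.

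For subunit 4, the isoform 2 copy LOC113094754 (on an unplaced sequence) was at 25.1, 15.1 and 92.3 FPKM in brown, 6.35, 40.0 and 173.7 in white, and 1.40, 4.18 and 98.8 in yellow. It held 0.494% of the FPKM of both isoforms in yellow 1 and 20.7% in white 3. The other isoform 2 copy, LOC113069123, was at 38.1 to 179.1 FPKM, and isoform 1 stayed the larger of the pair in every library, with summed FPKM of 187.9 to 639.1 against 42.3 to 352.8.

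The share of each product from its muscle-following copies correlated with muscle share at r = 0.919 for subunit 4, 0.894 for 5B, 0.805 for 6A, 0.938 for 7A2 and 0.870 for 8B over the 9 libraries. Centred by color, these were 0.939, 0.942, 0.865, 0.958 and 0.912. The copies were selected on the same libraries, so these values describe the selection and carry no test. Between colors, no copy passed the limma test.

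**Figure D4:**
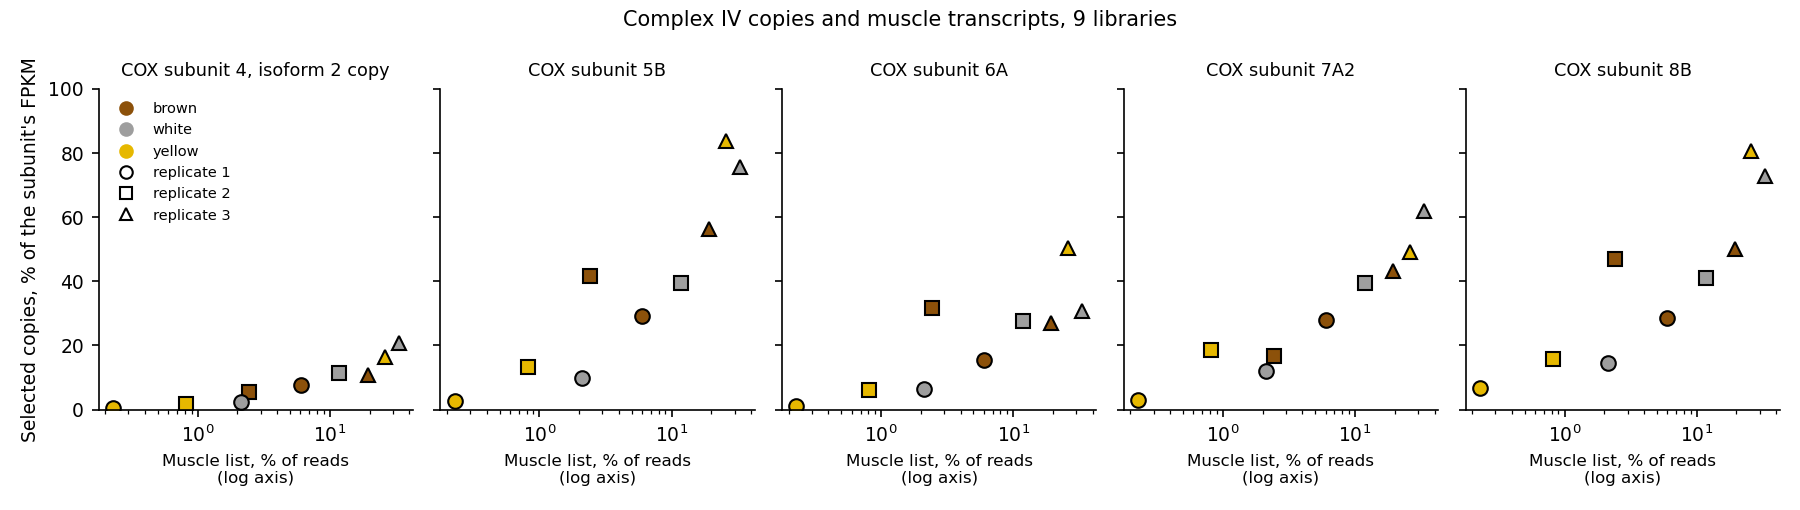
Share of each complex IV subunit's FPKM that came from the muscle-following copies (vertical axis, percent) against the share of reads on the skeletal muscle list (log axis), with a point per library. In each panel yellow 1 has the lowest share, and the share is highest in white 3 or yellow 3, while libraries of the same color lie far apart on the horizontal axis, from 0.229% to 26.0% in yellow and from 2.12% to 33.1% in white.

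A separate pattern set brown 3 apart. With limits chosen after the values were seen, 3 of the nuclear rows had at least 20 FPKM in 1 library and under 2 in the other 8, and 2 had at most 2 FPKM in 1 library and at least 10 in the other 8. In all 5 that library was brown 3. Over all genes, brown 3 had 15 rows of the first kind and 3 of the second, and the other libraries had 0 or 1 and 0 to 3. Copies outside these limits dropped out in other libraries too. LOC113078601 (complex I iron-sulfur protein 8) held 61.3% of its product in brown 1 and 0% in brown 3 and yellow 3. LOC113062366 (complex I flavoprotein 1) held 17.0% in brown 1 and 0% in yellow 3.

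Complex III subunit 9, a small subunit of the complex, showed both. LOC113090296 (on an unplaced sequence, 23588 to 24424) was at 56.1 FPKM in brown 3 and at most 0.174 in any other library. LOC113038962 (chromosome 21, 22349283 to 22350129) was at 1.03 FPKM in brown 3, against 15.0 in brown 1 and 20.3 in brown 2. The white libraries had 14.7, 14.8 and 40.0 FPKM and the yellow ones 19.5, 10.1 and 46.9. Another copy, LOC113064401 (chromosome 46), was also highest in brown 3, at 24.8 FPKM. Summed over its 4 copies the product had 82.7 FPKM in brown 3, 62.96 in white 3 and 58.5 in yellow 3.

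Complex I assembly factor 3, which acts while the complex is put together, had 2 copies that exchanged places. LOC113073716 was at 27.6 FPKM in brown 3 and at most 0.155 elsewhere, and LOC113097729 was at 0 in brown 3 and at 10.7 to 29.7 elsewhere. Their sum in brown 3, 27.6 FPKM, lay between those of white 3 (25.02) and yellow 3 (29.7). For subunit 8B of complex IV, LOC113066836 (chromosome 50) was at 50.2 FPKM in brown 3 and at most 1.52 elsewhere, with no copy falling in exchange.

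**Figure D5:**
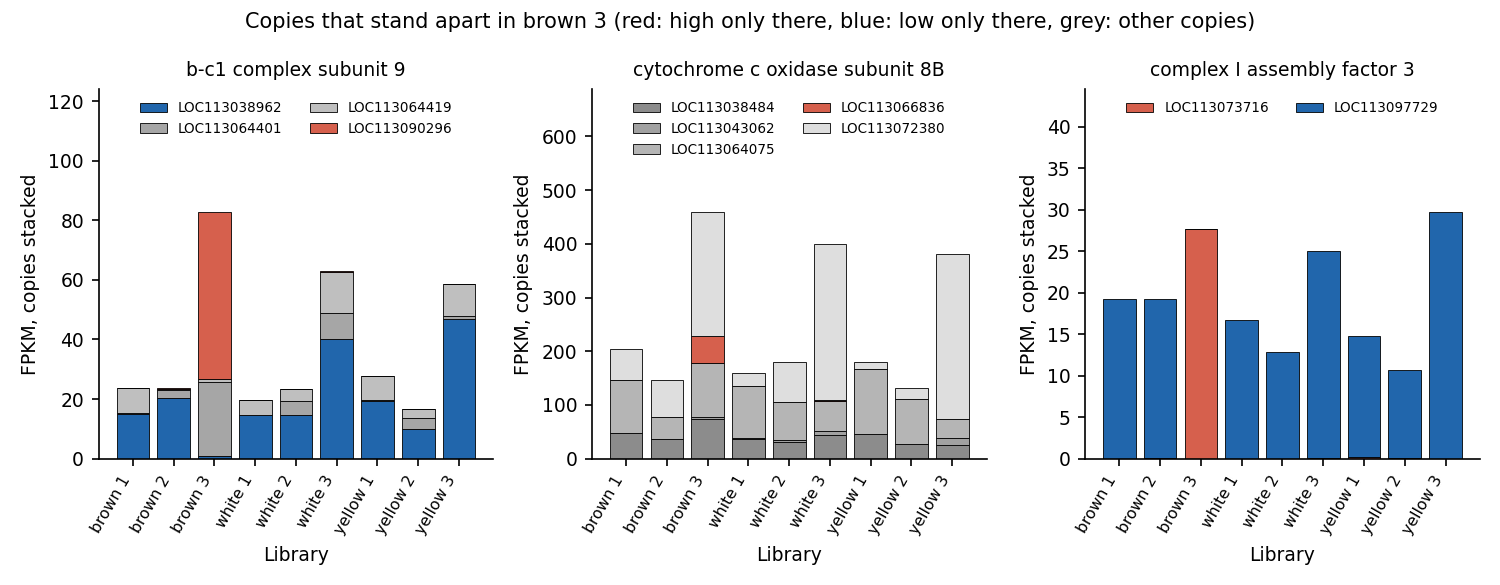
FPKM of the copies of 3 products in each library, stacked, with red for copies high only in brown 3, blue for copies low only there and grey for the rest. For b-c1 complex subunit 9 and complex I assembly factor 3 the copies exchange in brown 3. The stacked height in brown 3 is the highest of all libraries for subunit 9 (82.7 FPKM) and lies between those of white 3 and yellow 3 for assembly factor 3 (27.6 FPKM).

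Other mitochondrial genes were tested in the same limma fit, where 0 members were called in any comparison among 48 rows of other respiratory chain components such as cytochrome c and cytochrome c1, 41 of the citric acid cycle, 78 of the mitochondrial ribosome, 31 of mitochondrial carriers, 15 of mitochondrial biogenesis and 32 of assembly factors. The first of these lists also holds some assembly factors, and that of biogenesis some basic transcription factor 3 rows, which matched its name pattern. At an unadjusted limma p under 0.05 each list held 0% to 9.68% of its tested rows for brown against white, 0% to 5.13% for yellow against white and 0% to 6.67% for brown against yellow. That was 0 to 4 rows a list, and the shares of all genes were 5.72%, 3.5% and 1.67%.

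Their medians for yellow against white were all below that of all genes. They were -0.19 for the other chain components, -0.34 for the citric acid cycle, -0.18 for the ribosome, -0.13 for carriers, -0.10 for biogenesis and -0.16 for assembly factors, beside -0.03. For the skeletal muscle list the median was -1.91, with 0 of 114 called, and for the keratinocyte list 0.40, with 0 of 47 called. Citric acid cycle rows took 0.186%, 0.135% and 0.271% of brown reads, 0.139%, 0.189% and 0.348% of white and 0.113%, 0.121% and 0.257% of yellow, highest in the libraries numbered 3.

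Slow and cardiac muscle fibres are rich in mitochondria. The slow and cardiac muscle list was taken by product name, such as myoglobin, cardiac actin and sarcoplasmic/endoplasmic reticulum calcium ATPase 2. Whether its rows mark such fibres in skin was not tested. Brown had median log2 differences of 1.25 against white and 1.65 against yellow over its 30 tested rows. None was called, and 8 (26.7%) and 11 (36.7%) of them had an unadjusted limma p under 0.05, where 5.72% and 1.67% of all genes did. For brown against white, 9 of 47 keratinocyte rows (19.1%), all higher in brown, did so too. So did 3 of 15 rows (20%) of a list for ionocytes, ion-transporting cells, of which 2 were higher and 1 lower in brown. Of the skeletal muscle list, 0 of 114 rows did. For brown against white, an excess of such rows was thus not limited to the slow and cardiac list, and its direction differed between lists. For brown against yellow, neither the keratinocyte nor the ionocyte list had such a row, and the skeletal muscle list had 1 of 114. The slow and cardiac list took 0.0550%, 0.0347% and 0.104% of brown reads, 0.0244%, 0.0266% and 0.0194% of white and 0.0154%, 0.0298% and 0.0173% of yellow. Every brown library was above every white and yellow one. Brown 2, with the high mitochondrial ratio, was the lowest of the brown libraries here. The part of slow muscle in the ratio was not tested.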

How the data were processed

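The authors deposited 1 file per library with a value for 74297 genes. Per the submitters' processing notes, HISAT2 and StringTie were used, with no version stated. No source used here gives the genome build, strand setting or multi-mapping rule. The deposited values were taken as FPKM from their steps: FPKM times length gave whole reads for 100% of nonzero values (tolerance 0.001 reads). Of 180 nuclear rows, all 180 matched RefSeq gene IDs and start positions of ASM336829v1, whose chromosome numbers are used. Limma 3.58.1 (R 4.3.3) tested log2(FPKM + 1), with 9 libraries in 1 fit, no covariate, at least 1 FPKM in 3 libraries and two-sided Benjamini-Hochberg adjustment at 0.05. Fold changes on this scale understate those of low genes. The sums over each genome were tested as reads over the authors' library totals. The ratio and the sums per complex were tested on summed FPKM. All were compared by exact permutation over libraries. Scripts were tested on simulated data. There, limma for brown against white recovered 41 of 98 tested 4-fold changes and 74 of 97 tested 16-fold changes, with 3 false calls. Named rows are all mitochondrial protein-coding and rRNA genes, called nuclear rows or the 10 with the smallest F-test p, the 2 most abundant per complex, and isoforms of complex IV subunits 4, 6A, 7A and 8. Further rows were named after their values were seen. The rows and lists were chosen with earlier results of these data known.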

Additional observations from a re-analysis of the deposited data

How the results depend on the processing

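Over other pseudocounts, filters, scalings, voom, a muscle covariate and left-out libraries, the count of rows called stayed at 0 in each comparison. The exception was array weights, which called 1 row, the tRNA-Ser with 7 reads, for yellow against white (where 437 genes were called in all) and 1 over the 3 colors (157). The other settings called few genes of any kind, at most 16 of 27420 (3 colors, pseudocount of 0.1). A count of 0 there says little about these rows in particular. On medians of log2 values the ratio's brown minus white log2 difference was 0.187. Without single libraries it ran from 0.320 to 1.317, and that of brown minus yellow from -0.009 to 0.988; the exact p over the 3 colors ran from 0.0821 to 0.514. Without the 3 libraries numbered 3 that p was 0.333, and 0.2 for the mitochondrial sum. Equal replicate numbers were not taken to pair the libraries. The correlations of their deviations ran from -0.302 to 0.766 over 9 pairs, and from -0.691 to 0.611 over 18 pairs of unlike numbers. All pairs numbered 1 or 3 were positive, and both negative pairs held brown 2. Brown 1 correlated better with yellow 2 (0.611) than with yellow 1 (0.460). With the replicate number as a block, 0 rows were called, while calls over all genes went from 10 to 3 for brown against white, from 12 to 6 for yellow against white and from 13 to 7 over the 3 colors. The block's exact p was 0.0833 for the mitochondrial sum, 0.333 for the nuclear sum and 0.389 for the ratio. Counts at an unadjusted limma p under 0.05 for brown against yellow depended on the setting. With the block they were 8 of 173 rows (797 of 27420 genes), and without yellow 3 17 of 171 (1633 of 26751), all higher in brown. Without brown 3 they were 0 of 170 (402 of 26880). Values of single copies depend on how shared reads were counted.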
